A study of Mus musculus with 16 samples.

Results

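Type 2 conventional dendritic cells are antigen-presenting cells that depend on Flt3 signalling and carry the dendritic cell transcription factor Zbtb46. In lymphoid organs and in tumors they take up antigen, carry it on MHC class II molecules and prime CD4 T cells, whereas type 1 conventional dendritic cells are known for cross-presentation to CD8 T cells. Cd209a and Clec10a, both C-type lectins, are commonly used to mark the type 2 cells of the mouse.

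The cells described here were chosen by the rule that a barcode held at least 1 UMI (unique molecular identifier, 1 captured RNA molecule) of Cd209a or Clec10a, at least 1 of Flt3 or Zbtb46, at least 5 of Cst3 and at least 5 of H2-Ab1. The rule also required 0 UMIs of Xcr1 and Clec9a, 0 of Siglech, 0 of the CD3 genes, at most 1 of Ccr7, at most 1 of Cd79a and at most 2 of the C1q genes. It found 116 members among 17769 barcodes of 8 CD45+ libraries, which is 0.653% of them, and the whole series held 37609 barcodes in 16 libraries.

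The study asked how loss of Aire, the regulator of tissue antigens in the thymus, bears on the response to checkpoint blockade. MC38 colon tumors of C57BL/6 origin grew in Aire+/+ and Aire-/- mice, which were female and 8 weeks old per the paper, and each genotype received either anti-PD1 or an isotype control antibody. Tumors and spleens were taken on day 19, sorted for CD45 and read as single-cell RNA. The 4 conditions were Aire+/+ with isotype, Aire+/+ with anti-PD1, Aire-/- with isotype and Aire-/- with anti-PD1, and the values of 4 libraries below always follow that order.

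Each condition had 1 library per tissue, made from the pooled tissue of several mice, so genotype and treatment had no replicate and no test was run on them. Tumor and spleen had 4 libraries each and could be tested against each other. For flow cytometry the paper describes enzymes for tumors and mechanical dispersion for spleens, and it does not give this step for the single-cell libraries, so the tissue and its dissociation cannot be told apart in any tissue comparison below.

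The tumor libraries held 38961020, 28780160, 24658741 and 23286592 UMIs and the spleen libraries 12181206, 10987970, 11227539 and 12636201. Median UMIs per barcode were 11862.5, 11842, 12238.5 and 9885.5 in tumor and 4525, 4388, 4712.5 and 4490 in spleen, so the tumor libraries were deeper throughout. The members themselves lay closer together, with medians of 14917, 17318, 14472 and 13682 UMIs in tumor and 13314, 10428.5, 10640.5 and 10443 in spleen. Summed over members, the 8 libraries gave 394592, 448378, 251293 and 298165 UMIs in tumor and 169384, 102758, 41525 and 42901 in spleen.

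Aire was looked at first, as the deleted gene. Over all barcodes the libraries held 0, 2, 1 and 0 Aire UMIs in tumor and 2, 5, 4 and 0 in spleen, and the members held 0 in every library. In CPM, the UMIs of a gene per 1000000 UMIs of the summed members, this allows up to 7.60, 6.69, 11.9 and 10.1 CPM in tumor and 17.7, 29.2, 72.2 and 69.9 in spleen. These counts check nothing about the genotype labels, since Aire was at or near 0 in the Aire+/+ libraries too and a tag outside the deleted part of the gene would still be counted in Aire-/- mice.

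The members were more frequent among CD45+ barcodes of tumor than of spleen. Tumor held 23, 25, 17 and 20 members, or 0.783% (Clopper-Pearson 95% interval 0.497 to 1.17), 1.13% (0.733 to 1.66), 0.914% (0.533 to 1.46) and 0.963% (0.589 to 1.48). Spleen held 13, 10, 4 and 4 members, or 0.613% (0.327 to 1.05), 0.472% (0.227 to 0.867), 0.195% (0.0532 to 0.499) and 0.167% (0.0454 to 0.426). Every tumor library lay above every spleen library, with the 2 Aire-/- spleen libraries lowest. These intervals and those below cover counting error only.

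The mean share was 0.948% ± 0.144 (SD, n = 4) in tumor and 0.362% ± 0.217 (SD, n = 4) in spleen, a difference of 0.586 percentage points with a two-sided exact permutation p of 0.0286, the smallest that 70 splits allow. The test took the 8 libraries as unpaired. With tumor and spleen paired by condition, a test added after seeing the data, tumor was higher in 4 of 4 pairs at an exact p of 0.125, the smallest that 16 sign flips allow. Without the Aire+/+ anti-PD1 tumor library the difference was 0.525 points (exact p = 0.0571), and without the Aire-/- anti-PD1 tumor library 0.581 points (exact p = 0.0571).

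The share moved with depth. With every barcode thinned to 3000 UMIs, 945 shallower ones left out and the rule applied again, tumor held 17 members and spleen 10. Their shares were 0.136%, 0.136%, 0.215% and 0.289% in tumor and 0.0544%, 0.110%, 0.212% and 0.136% in spleen, so the tissues overlapped. The thinned means were 0.194% and 0.128% (exact permutation p = 0.2).

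Among barcodes in any of 4 dendritic cell gates the mean share of members was near in both tissues, but 1 of the gates, that of mature cells, held 16, 15, 16 and 23 barcodes in tumor and 1, 0, 0 and 0 in spleen. The members were 38.3%, 41.0%, 37.8% and 28.2% of such barcodes in tumor and 40.6%, 50%, 23.5% and 33.3% in spleen, with means of 36.3% and 36.9%. The difference was -0.556 points (exact permutation p = 1). Without the mature gate, a choice made after seeing the data, the members were 52.3%, 54.3%, 58.6% and 41.7% in tumor and 41.9%, 50%, 23.5% and 33.3% in spleen, a difference of 14.5 points (exact p = 0.0857).

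**Figure D1:**
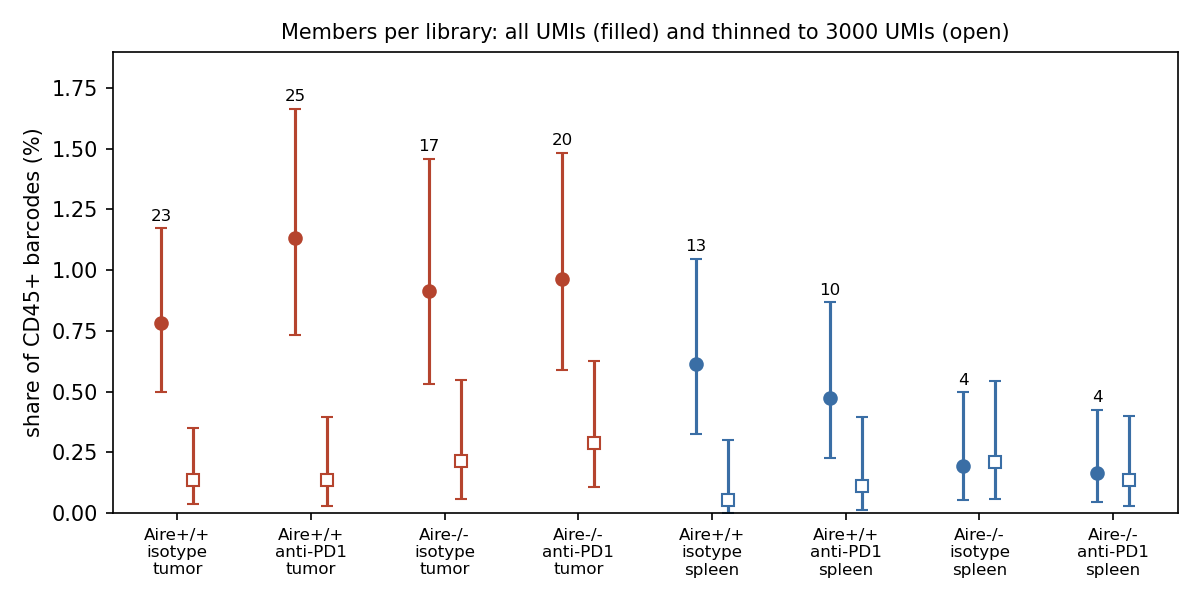
Members as a percentage of CD45+ barcodes in each of 8 libraries, with Clopper-Pearson 95% intervals and the number of members above each filled point. Filled points use all UMIs and lie higher in the 4 tumor libraries (red) than in the 4 spleen libraries (blue), and open squares use barcodes thinned to 3000 UMIs, where the tissues overlap.

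Many members sat close to the rule's limits. Of the 116, 18 held exactly 1 UMI of Cd209a and Clec10a together and 40 held exactly 1 of Flt3 and Zbtb46 together, while 90 barcodes failed only the first of these clauses and 132 only the second. Another 38 barcodes failed only because of Xcr1 or Clec9a, 16 of them by 1 UMI, and 37 failed only on H2-Ab1.

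Cd209a alone chose 38 members, Clec10a alone 27 and both together 51. Flt3 alone chose 69, Zbtb46 alone 21 and both 26. The balance differed by tissue as a description of the choice: Clec10a alone marked 25 of 85 tumor members and 2 of 31 spleen members, and Zbtb46 alone 20 and 1.

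Levels of the rule genes, in CPM of the summed members, were not tested. Cd209a stood at 966, 604, 1449 and 946 CPM in tumor and 1417, 360.1, 1180.0 and 2424 in spleen. Clec10a stood at 284, 330.1, 533 and 178 CPM in tumor and 64.9, 165, 120.4 and 46.6 in spleen. Flt3, the growth factor receptor of dendritic cells and their precursors, stood at 96.3, 98.1, 107 and 97.3 CPM in tumor and 183, 282, 337 and 279.7 in spleen. Flt3 was higher in the 4 spleen libraries than in the 4 tumor libraries, Clec10a was higher in tumor, and Cd209a and Zbtb46 overlapped between the tissues. Zbtb46 stood at 53.2, 33.5, 55.7 and 30.2 CPM in tumor and 17.7, 68.1, 24.1 and 69.9 in spleen.

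The label was checked against genes outside the rule. Cd300a, an inhibitory receptor of myeloid cells, had a UMI in 78 of 85 tumor members (91.8%) and 31 of 31 spleen members (100%). Kmo, an enzyme of tryptophan breakdown, had one in 58 of 85 tumor members (68.2%) and 22 of 31 spleen members (71.0%). The T cell gate, which should lack both, had Cd300a in 0.179% in tumor and 0.185% in spleen and Kmo in 0.357% in tumor and 0.247% in spleen of its barcodes, at median depths of 7652.5 UMIs in tumor and 5444 in spleen against 14978 and 12174 for the members. Both genes were therefore far above the share seen in T cells. That gate kept Cst3 and H2-Ab1 low and left out Flt3 and Zbtb46, so this contrast cannot tell the members from other myeloid cells. By the Lyz2 split below, Kmo had a UMI in 19 of 41 members with 10 or more UMIs of Lyz2 and 61 of the other 75. Other identity genes varied. Csf2rb had a UMI in 19, 23, 17 and 19 tumor members and 9, 7, 2 and 3 spleen members. Sirpa had one in 17, 23, 14 and 16 tumor members and 12, 10, 4 and 3 spleen members. Fewer members held Mgl2, at 26 of 85 tumor members (30.6%) and 2 of 31 spleen members (6.45%). Cd24a was likewise found in 30 of 85 tumor members (35.3%) and 3 of 31 spleen members (9.68%). Cells closer to the members were set apart less: the type 2 identity list summed to 3041, 2587, 2037 and 1996 CPM in tumor and 2043, 2121, 2360.0 and 3240.0 in spleen in the members, against 1883 and 1935 CPM in the tumor and spleen monocyte gates and 1776 and 2039 in the macrophage gates, so the lowest member libraries were close to these gates. Irf4, a transcription factor that type 2 cells need, had a UMI in 22 of 85 tumor members (25.9%) and 8 of 31 spleen members (25.8%), against 21.4% in tumor and 2.47% in spleen of T cells, so the tumor share was near that in T cells.

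A monocyte pattern ran through some of the members. Lyz2, the lysozyme of myeloid cells, was at 0 UMIs in 42 members, at 1 to 9 in 33 and at 10 or more in 41. The limit of 10 was chosen after the values were seen, and 5 members held 5 to 9 UMIs and 9 held 10 to 19. Members with 10 or more were 17.4% (4.95 to 38.8), 20% (6.83 to 40.7), 47.1% (23.0 to 72.2) and 55% (31.5 to 76.9) of those in tumor. In spleen they were 46.2% (19.2 to 74.9), 40% (12.2 to 73.8), 25% (0.631 to 80.6) and 50% (6.76 to 93.2), on 6, 4, 1 and 2 members. In tumor both Aire-/- libraries lay above both Aire+/+ libraries, but the counting intervals of the genotypes overlapped.

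Genes of monocytes, likewise named after their values were seen, followed the split. F13a1, a clotting factor subunit made by monocytes, had a UMI in 33 of the 41 members with 10 or more Lyz2 UMIs and in 3 of the other 75. Fn1, fibronectin, had one in 32 and 6. Ccr2, the receptor that draws monocytes out of the marrow, had one in 39 and 40. Among rule genes, which the choice of members fixes in part, Zbtb46 had a UMI in 6 of the 41 and in 41 of the other 75, Flt3 in 38 and 57, and Cd209a in 38 and 51. Several results below are given with and without the 41 members.

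The contrast was read in each tissue. Among tumor members, F13a1 stood at 459.7 CPM in the 28 with 10 or more Lyz2 UMIs and at 6.14 in the other 57, and Zbtb46 stood at 14.4 and 54.2. Among spleen members, Ly6c2, a surface protein of inflammatory monocytes, stood at 814 in the 13 with 10 or more and at 0 in the other 18, whereas in tumor it stood at 659.5 and 387. Ltb, a lymphotoxin subunit found in spleen type 2 cells, went the other way in spleen, at 12.6 and 353. Cd209a was higher in tumor members with 10 or more, at 1748 against 585, and stood at 1356 and 1086 in spleen.

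**Figure D2:**
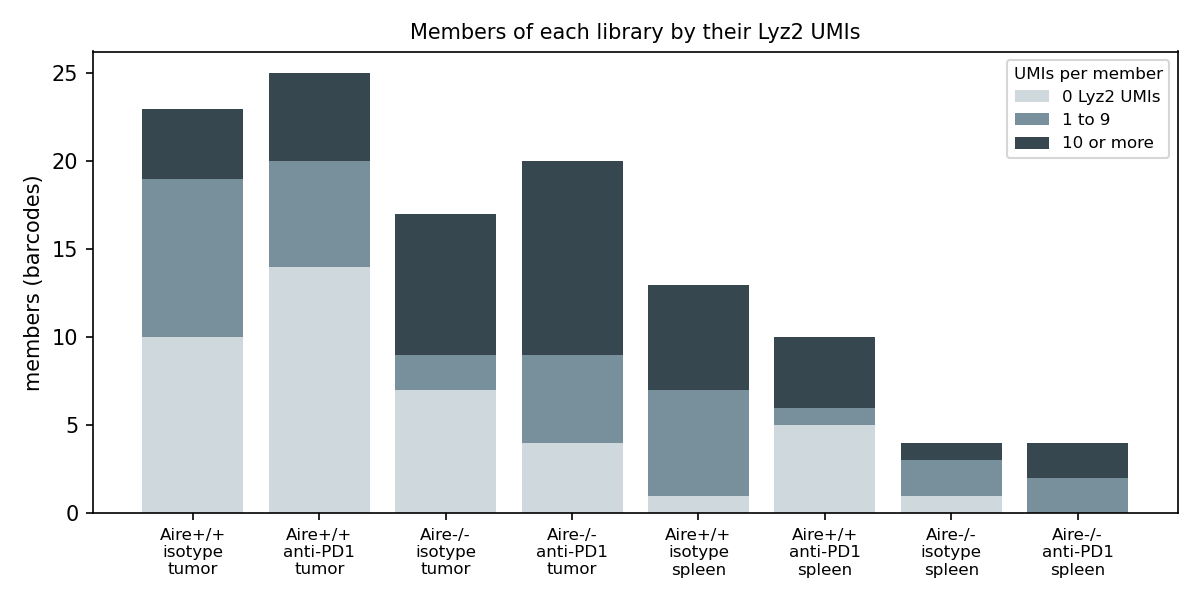
Number of members in each of 8 libraries, stacked by whether they held 0, 1 to 9, or 10 or more Lyz2 UMIs. Members with 10 or more were 8 of 17 and 11 of 20 in the Aire-/- tumor libraries and 4 of 23 and 5 of 25 in the Aire+/+ tumor libraries.

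Marker lists of other cell types were read whole. The monocyte list had UMIs in all 11 genes and summed to 1404, 2273, 2495 and 3789.8 CPM in tumor and 3235, 2725, 2432 and 1189 in spleen, led by Plac8, with 0 of 4 tested genes passing for tissue in edgeR or DESeq2, 0 at an unadjusted p under 0.05 and a median log2 difference of -0.39. The macrophage list had UMIs in 10 of 11 genes and summed to 966, 689, 768 and 1039.7 CPM in tumor and 856, 623, 602 and 559 in spleen, led by Cd68, with Mertk at 0, and 1 gene was higher and 1 lower in tumor of 3 tested. The lower one, Adgre1, had an adjusted p of 0.0559 without the Aire+/+ anti-PD1 libraries. The type 1 dendritic cell list did not hold Xcr1 and Clec9a, which the rule kept at 0. It had all 9 genes with UMIs and summed to 395, 428, 617 and 701 CPM in tumor and 679, 467, 554 and 699 in spleen, led by Irf8, with 0 higher and 1 lower in tumor of 5 tested. That gene, Batf3, had an adjusted p of 0.0508 without the Aire+/+ anti-PD1 libraries. The parts these genes had in the results were not tested.

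Lymphoid, granulocyte and stromal markers were low. The T cell list had UMIs in 4 of 6 genes and summed to 81.1, 69.1, 19.9 and 47.0 CPM in tumor and 0 in each spleen library, with Tcf7 and Lef1 at 0. The B cell list had UMIs in 2 of 6 genes and summed to 0, 11.2, 15.9 and 3.35 CPM in tumor and 41.3, 19.5, 0 and 46.6 in spleen, with Pax5 and Ebf1 at 0. The neutrophil list had UMIs in 6 of 8 genes and summed to 2.53, 98.1, 3.98 and 6.71 CPM in tumor and 11.8, 0, 0 and 0 in spleen, led by S100a8, with Ngp and Camp at 0. No gene of these lists had enough UMIs to be tested.

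The remaining lists differed in level. The tumor or stromal cell list had UMIs in 5 of 9 genes and summed to 12.7, 22.3, 7.96 and 0 CPM in tumor and 11.8, 0, 48.2 and 46.6 in spleen, with Col1a2 and Col3a1 at 0 and no gene tested. The plasmacytoid list had UMIs in 5 of 9 genes and summed to 651, 926, 585 and 637 CPM in tumor and 307, 272, 265 and 163 in spleen, led by the interferon-induced Bst2, with Ccr9 and Ly6d at 0 and 1 higher of 2 tested. The mature migratory list had UMIs in 13 of 14 genes and summed to 933, 1062, 875 and 906 CPM in tumor and 579, 681, 529.8 and 373 in spleen, with Il12b at 0, and 1 gene was higher and 1, Relb, lower of 6 tested (adjusted p 0.169 without the Aire+/+ isotype libraries, 0.302 without the Aire+/+ anti-PD1 libraries and 0.0502 without the Aire-/- isotype libraries). The natural killer cell list had UMIs in 4 of 7 genes and summed to 487, 789.5, 442 and 181 CPM in tumor and 195, 234, 241 and 256 in spleen, almost wholly from Klrd1, while its defining genes Ncr1, Klrb1c and Prf1 were at 0. Klrd1, its 1 tested gene, passed as higher in tumor in edgeR and not in DESeq2, and lost the call at adjusted p of 0.141 without the Aire+/+ isotype libraries, 0.324 without the Aire+/+ anti-PD1 libraries and 0.111 without the Aire-/- isotype libraries. The part of these lists in the results was not tested.

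In the tissue comparison, edgeR tested 2810 genes outside the rule genes on member sums of the 8 libraries. Of them, 290 were higher in tumor (10.3%) and 179 lower (6.37%) at a Benjamini-Hochberg adjusted p under 0.05, with 832 at an unadjusted p under 0.05, and the median log2 difference of all tested genes was 0.01. Leaving out the Aire+/+ anti-PD1 libraries gave 188 higher and 74 lower, and leaving out the Aire-/- isotype libraries gave 225 and 115.

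Chemokines, the secreted proteins that draw leukocytes, gave 5 higher and 0 lower of 9 tested, with a median of 4.20, also when 3 genes without a spleen UMI were set at their bound. The list summed to 5629, 3176, 7298 and 8032 CPM in tumor and 1287, 2267, 987 and 699 in spleen, so every tumor library lay above every spleen library. Other cells of the same libraries showed this contrast too. The list summed to 14521 CPM in the tumor monocyte gate and 2021 in that of spleen. The macrophage gates held 14393 and 438 and the T cell gates 5693 and 2072. Ccl4, which draws T cells and monocytes, held 1219, 1077, 1329 and 1274 CPM in tumor and 0 in each spleen library. It had no UMI in spleen, and in tumor it lay in 13, 10, 7 and 13 members, of which 1 gave 214 of 483 UMIs in the Aire+/+ anti-PD1 library and 1 gave 178 of 334 in the Aire-/- isotype library. Ccl4 was at least 143-fold higher in tumor against a floor of 3 UMIs over the spleen members, with tumor above spleen in 4 of 4 conditions (edgeR, Benjamini-Hochberg adjusted p = 4.19e-06).

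Ccl2, which draws monocytes through Ccr2, held 281, 75.8, 223 and 335 CPM in tumor and 0 in each spleen library. Ccl2 was at least 25.7-fold higher in tumor against a floor of 3 UMIs over the spleen members, with tumor above spleen in 4 of 4 conditions (edgeR, Benjamini-Hochberg adjusted p = 0.000105). The Aire+/+ anti-PD1 library was the lowest of the tumor libraries, and the UMIs lay in 4, 7, 6 and 13 members. Cxcl16, a ligand for Cxcr6 on T cells, held 279, 332, 485 and 265 CPM in tumor and 0, 0, 72.2 and 0 in spleen. Cxcl16 had a pooled tumor to spleen ratio of 39.3 (counting interval 13.4 to 191), with tumor above spleen in 4 of 4 conditions (edgeR, Benjamini-Hochberg adjusted p = 0.000106).

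Cxcl2, a neutrophil attractant, held 773, 161, 123 and 138 CPM in tumor and 0 in each spleen library. Cxcl2 was at least 38.3-fold higher in tumor against a floor of 3 UMIs over the spleen members, with tumor above spleen in 4 of 4 conditions (edgeR, Benjamini-Hochberg adjusted p = 5.52e-05). Its UMIs came from few members, since the highest member gave 133 of 305, 38 of 72, 29 of 31 and 41 of 41 UMIs of the tumor libraries. Cxcl10, an interferon-induced ligand for Cxcr3, held 279, 787, 3044 and 3532 CPM in tumor and 5.90, 243, 0 and 0 in spleen. The anti-PD1 spleen library of Aire+/+ mice was close to the lowest tumor library and the rest were apart. For Cxcl10, edgeR gave a log2 difference of 4.20 ± 0.71 (SE, n = 4) at a Benjamini-Hochberg adjusted p of 0.00121, with tumor above spleen in 4 of 4 conditions.

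Receptors were mixed. Of 9 receptor and positioning genes tested, 2 were higher and 2 lower, with a median of 0.04. Ccr1, a receptor for Ccl3 and Ccl5, held 228, 243, 267 and 356 CPM in tumor and 0 in each spleen library. Ccr1 was at least 31.8-fold higher in tumor against a floor of 3 UMIs over the spleen members, with tumor above spleen in 4 of 4 conditions (edgeR, Benjamini-Hochberg adjusted p = 6.75e-05). The tumor libraries lay close together.

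Il1r2, the decoy receptor that takes up interleukin 1, held 877, 1242, 812 and 433 CPM in tumor and 5.90, 0, 0 and 0 in spleen. Its single spleen UMI lay in the Aire+/+ isotype library, far under every tumor library. Il1r2 had a pooled tumor to spleen ratio of 317 (counting interval 56.7 to 12512), with tumor above spleen in 4 of 4 conditions (edgeR, Benjamini-Hochberg adjusted p = 1.4e-06). Il1b, the cytokine it binds, held 3129.8, 3200.4, 5125 and 3968 CPM in tumor and 118, 0, 385 and 186 in spleen. Each tumor library was several times above the highest spleen library. For Il1b, edgeR gave a log2 difference of 4.86 ± 0.48 (SE, n = 4) at a Benjamini-Hochberg adjusted p of 3.28e-05, with tumor above spleen in 4 of 4 conditions.

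Cx3cr1, the fractalkine receptor, went the other way at 2.53, 37.9, 15.9 and 73.8 CPM in tumor and 218, 97.3, 265 and 209.8 in spleen. The tissues did not overlap, with the Aire+/+ isotype library lowest in tumor. For Cx3cr1, edgeR gave a log2 difference of -2.73 ± 0.53 (SE, n = 4) at a Benjamini-Hochberg adjusted p of 0.00305, with tumor below spleen in 4 of 4 conditions.

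The costimulation and checkpoint list gave 5 higher and 0 lower of 8 tested, with a median of 1.93. Of the 5, Lgals9 had an adjusted p of 0.0689 without the Aire-/- isotype libraries. Cd83, which holds MHC class II at the surface of activated cells, held 725, 796, 1441 and 1157 CPM in tumor and 35.4, 48.7, 120.4 and 23.3 in spleen. For Cd83, edgeR gave a log2 difference of 4.22 ± 0.29 (SE, n = 4) at a Benjamini-Hochberg adjusted p of 2.32e-06, with tumor above spleen in 4 of 4 conditions. Cd86, a ligand of CD28, held 188, 212, 298 and 221 CPM in tumor and 17.7, 29.2, 48.2 and 0 in spleen. The lowest tumor library was several times above the highest spleen library for both genes. For Cd86, edgeR gave a log2 difference of 3.24 ± 0.40 (SE, n = 4) at a Benjamini-Hochberg adjusted p of 0.000133, with tumor above spleen in 4 of 4 conditions.

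Cd274, which codes for the PD-1 ligand PD-L1, held 58.3, 112, 143 and 181 CPM in tumor and 11.8, 29.2, 0 and 23.3 in spleen. The lowest value in tumor was that of the Aire+/+ isotype library and still above spleen. For Cd274, edgeR gave a log2 difference of 2.53 ± 0.47 (SE, n = 4) at a Benjamini-Hochberg adjusted p of 0.00238, with tumor above spleen in 4 of 4 conditions. Tnfsf9, the ligand of 4-1BB on T cells, held 142, 154, 59.7 and 83.8 CPM in tumor and 23.6, 19.5, 24.1 and 0 in spleen. For Tnfsf9, edgeR gave a log2 difference of 2.71 ± 0.44 (SE, n = 4) at a Benjamini-Hochberg adjusted p of 0.000932, with tumor above spleen in 4 of 4 conditions. Cd40 and Icosl did not pass.

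The immediate early list, which also holds genes known to respond to enzymatic tissue dissociation, gave 15 higher and 0 lower of 18 tested, with a median of 2.86, and 14 and 0 in DESeq2. Of the 15, Hspa1a lost the call at adjusted p of 0.144 without the Aire+/+ isotype libraries, 0.194 without the Aire+/+ anti-PD1 libraries and 0.105 without the Aire-/- isotype libraries. It summed to 20545, 19383, 20008 and 21106 CPM in tumor and 5107, 4379, 6285 and 4126 in spleen, and the tumor libraries lay within a narrow band far above spleen. Fos, a subunit of the AP-1 factor, held 3148, 2931, 2702 and 2442 CPM in tumor and 301, 136, 217 and 163 in spleen. For Fos, edgeR gave a log2 difference of 3.82 ± 0.26 (SE, n = 4) at a Benjamini-Hochberg adjusted p of 2.32e-06, with tumor above spleen in 4 of 4 conditions. Atf3, a stress-response factor, held 1282, 972, 879 and 1456 CPM in tumor and 112, 19.5, 24.1 and 23.3 in spleen. For Atf3, edgeR gave a log2 difference of 4.44 ± 0.35 (SE, n = 4) at a Benjamini-Hochberg adjusted p of 4.53e-06, with tumor above spleen in 4 of 4 conditions.

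Zfp36, which shortens the life of cytokine mRNAs, held 3018, 2919, 3271 and 3488 CPM in tumor and 514, 399, 626 and 326 in spleen. For Zfp36, edgeR gave a log2 difference of 2.79 ± 0.23 (SE, n = 4) at a Benjamini-Hochberg adjusted p of 6.51e-06, with tumor above spleen in 4 of 4 conditions. The tumor and spleen values of all 3 genes were far apart. Other cells of the same libraries showed the same contrast, since the list summed to 10613 CPM in the tumor T cell gate and 3802 in that of spleen. The part of dissociation in these differences was not tested.

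Interferon-response genes were higher in tumor members. The type I interferon list gave 14 higher and 0 lower of 17 tested, with a median of 1.74, and summed to 4661, 7074, 6423 and 8187 CPM in tumor and 2054, 1625, 2384 and 746 in spleen. Of the 14, Oasl2 lost the call at adjusted p of 0.0917 without the Aire+/+ isotype libraries, 0.163 without the Aire+/+ anti-PD1 libraries and 0.0602 without the Aire-/- anti-PD1 libraries, Ifi204 at 0.101 without the Aire+/+ anti-PD1 libraries and 0.0766 without the Aire-/- isotype libraries, and Mx1 at 0.133 without the Aire+/+ anti-PD1 libraries. Isg15, a ubiquitin-like protein induced by interferon, held 1049, 1568, 1337 and 2049 CPM in tumor and 236, 302, 337 and 46.6 in spleen. The Aire-/- anti-PD1 libraries were highest in tumor and lowest in spleen. For Isg15, edgeR gave a log2 difference of 2.62 ± 0.33 (SE, n = 4) at a Benjamini-Hochberg adjusted p of 0.000154, with tumor above spleen in 4 of 4 conditions.

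Irf7, the factor that amplifies type I interferon, held 542, 1013, 736 and 1134 CPM in tumor and 325, 146, 289 and 139.9 in spleen. For Irf7, edgeR gave a log2 difference of 1.84 ± 0.33 (SE, n = 4) at a Benjamini-Hochberg adjusted p of 0.0017, with tumor above spleen in 4 of 4 conditions. Ifi205, an interferon-induced nucleic acid binding protein with close relatives whose UMIs may be split, held 284, 515, 589 and 812 CPM in tumor and 47.2, 0, 24.1 and 0 in spleen. Both genes were higher in each tumor library than in any spleen library. For Ifi205, edgeR gave a log2 difference of 4.24 ± 0.53 (SE, n = 4) at a Benjamini-Hochberg adjusted p of 0.00014, with tumor above spleen in 4 of 4 conditions. In the tumor T cell gate Isg15 had a UMI in 70.8% of barcodes and Irf7 in 72.1%, so these genes were not particular to the members.

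The interferon-gamma list was less even, with 4 higher and 0 lower of 12 tested and a median of 1.25. Of the 4, Gbp7 lost the call at adjusted p of 0.0559 without the Aire+/+ isotype libraries, 0.0844 without the Aire+/+ anti-PD1 libraries, 0.0875 without the Aire-/- isotype libraries and 0.0839 without the Aire-/- anti-PD1 libraries, and Irf1 at 0.0653 without the Aire+/+ anti-PD1 libraries and 0.0622 without the Aire-/- isotype libraries. It summed to 1546, 2866, 6594 and 8448 CPM in tumor and 897, 2793, 819 and 1142 in spleen, so the Aire+/+ isotype tumor library lay under the Aire+/+ anti-PD1 spleen library. In that spleen library Cxcl9 stood at 574 CPM, with 59 of 59 UMIs in 1 member, and Cxcl10 at 243. Socs1, which dampens interferon signalling, held 27.9, 169.5, 310.4 and 466 CPM in tumor and 5.90, 58.4, 0 and 0 in spleen. The Aire+/+ isotype tumor library again lay within the spleen range. For Socs1, edgeR gave a log2 difference of 2.96 ± 0.59 (SE, n = 4) at a Benjamini-Hochberg adjusted p of 0.0037, with tumor above spleen in 4 of 4 conditions.

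**Figure D3:**
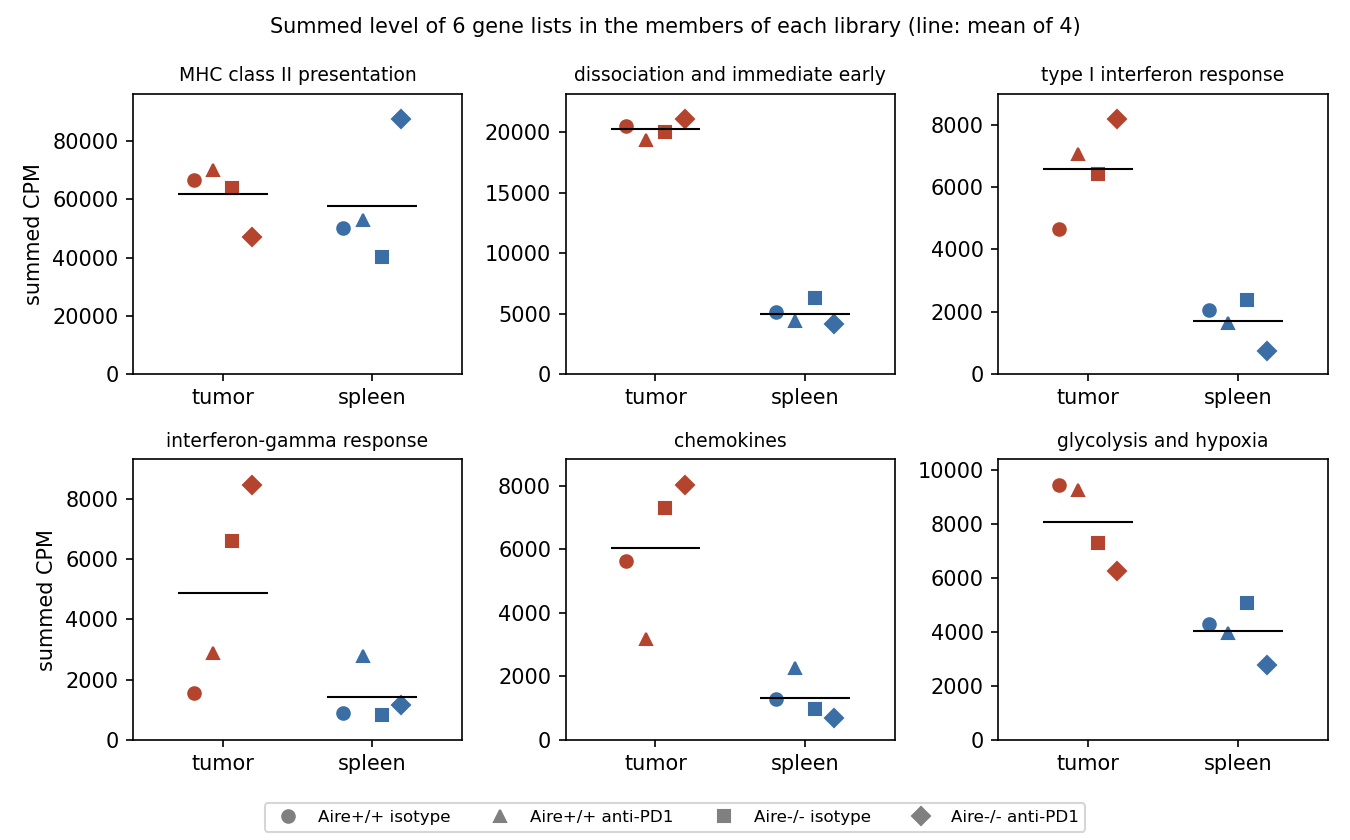
Summed level of 6 gene lists in the members of each library, in CPM from 0, with 1 symbol per condition and a line at the mean of 4 libraries. Tumor (red) lies above spleen (blue) in every library for the immediate early, type I interferon, chemokine and glycolysis lists, and the tissues overlap for the MHC class II and interferon-gamma lists.

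Glycolysis and hypoxia genes gave 10 higher and 0 lower of 15 tested, with a median of 1.20. In the T cell gates the list also summed higher in tumor, at 12404 CPM against 4283 in spleen. Of the 10, Aldoa lost the call at adjusted p of 0.182 without the Aire+/+ isotype libraries, 0.215 without the Aire+/+ anti-PD1 libraries and 0.147 without the Aire-/- isotype libraries, Pgk1 at 0.0775 without the Aire+/+ isotype libraries and 0.0747 without the Aire+/+ anti-PD1 libraries, and Pkm at 0.0631 without the Aire+/+ anti-PD1 libraries. Slc2a1, the glucose transporter Glut1, held 134, 120.4, 131 and 158 CPM in tumor and 17.7, 9.73, 24.1 and 0 in spleen. For Slc2a1, edgeR gave a log2 difference of 3.23 ± 0.46 (SE, n = 4) at a Benjamini-Hochberg adjusted p of 0.000364, with tumor above spleen in 4 of 4 conditions. Hif1a, the oxygen-sensing factor, held 122, 165, 219 and 221 CPM in tumor and 17.7, 29.2, 48.2 and 23.3 in spleen. For both genes each tumor library lay above each spleen library. For Hif1a, edgeR gave a log2 difference of 2.63 ± 0.36 (SE, n = 4) at a Benjamini-Hochberg adjusted p of 0.000274, with tumor above spleen in 4 of 4 conditions. Mif, a cytokine among the list's targets, held 649, 602, 279 and 191 CPM in tumor and 70.8, 127, 72.2 and 23.3 in spleen. The Aire+/+ libraries were the higher ones in tumor. For Mif, edgeR gave a log2 difference of 2.66 ± 0.31 (SE, n = 4) at a Benjamini-Hochberg adjusted p of 8.52e-05, with tumor above spleen in 4 of 4 conditions.

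Pathogen receptors split in direction. C-type lectin receptors gave 2 higher and 3 lower of 7 tested, with a median of -0.83. Clec7a, the beta-glucan receptor dectin-1, held 585, 289.9, 657 and 664 CPM in tumor and 112, 146, 120.4 and 209.8 in spleen. For Clec7a, edgeR gave a log2 difference of 1.86 ± 0.29 (SE, n = 4) at a Benjamini-Hochberg adjusted p of 0.000789, with tumor above spleen in 4 of 4 conditions. Clec4a2, an inhibitory lectin, held 88.7, 15.6, 11.9 and 60.4 CPM in tumor and 213, 146, 96.3 and 209.8 in spleen. Clec7a was above all spleen values in each tumor library and Clec4a2 below all of them. For Clec4a2, edgeR gave a log2 difference of -1.92 ± 0.37 (SE, n = 4) at a Benjamini-Hochberg adjusted p of 0.00285, with tumor below spleen in 4 of 4 conditions.

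Of the Toll-like and cytosolic sensors, 3 were higher and 0 lower of 7 tested, with a median of 0.82. Cd14, the co-receptor for lipopolysaccharide, held 286, 399, 442 and 590.3 CPM in tumor and 29.5, 0, 0 and 0 in spleen. In spleen its UMIs lay in 1 library alone. For Cd14, edgeR gave a log2 difference of 4.79 ± 0.54 (SE, n = 4) at a Benjamini-Hochberg adjusted p of 6.75e-05, with tumor above spleen in 4 of 4 conditions. Of 4 cytokine genes tested 1 was higher and 1, Tnfsf13, lower (adjusted p 0.302 without the Aire+/+ anti-PD1 libraries), with a median of -0.55. DESeq2 called 1 higher and 0 lower. Il10, Il12a, Il12b and Il23a had 0 UMIs in the members.

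MHC class II presentation did not separate the tissues. Of 13 genes tested, edgeR called 0 in either direction, with a median of 0.11, beside 4 of the 13 at an unadjusted p under 0.05, and DESeq2 called 1 higher. The list, which leaves out H2-Ab1 of the rule, summed to 66709, 70079, 63889.6 and 47229 CPM in tumor and 50347, 53037, 40193 and 87690.3 in spleen, so the Aire-/- anti-PD1 libraries were lowest in tumor and highest in spleen. Cd74, the invariant chain, held 36225, 38135, 35906 and 26774 CPM in tumor and 28580, 30304, 22420.2 and 53542 in spleen. For Cd74, edgeR gave a log2 difference of 0.11 ± 0.39 (SE, n = 4) at a Benjamini-Hochberg adjusted p of 0.892, with tumor above spleen in 3 of 4 conditions.

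MHC class I presentation gave 1 higher, Tap1 (adjusted p 0.0632 without the Aire-/- isotype libraries), and 0 lower of 11, with a median of 0.20, and lysosome genes 0 higher and 2 lower of 17 in edgeR, with a median of 0.01, 6 at an unadjusted p under 0.05, and 1 higher and 0 lower in DESeq2. Both lower genes, Hexa and Psap, lost the call at adjusted p of 0.292 and 0.177 without the Aire+/+ isotype libraries and 0.194 and 0.226 without the Aire+/+ anti-PD1 libraries, and Hexa also at 0.0811 without the Aire-/- isotype libraries. The antioxidant list gave 2 higher and 0 lower of 5, with a median of 0.94, and of the 2, Nfe2l2 lost the call at adjusted p of 0.121 without the Aire+/+ isotype libraries, 0.0532 without the Aire+/+ anti-PD1 libraries, 0.154 without the Aire-/- isotype libraries and 0.0575 without the Aire-/- anti-PD1 libraries. Cell cycle genes gave 0 higher and 0 lower of 3 tested by edgeR and by DESeq2, with a median of 0.46 and 0 at an unadjusted p under 0.05.

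Identity genes of type 2 cells were mixed, with 3 higher and 1 lower of 12 tested and a median of -0.22. Sirpa, the receptor for CD47 that marks type 2 cells, held 157, 132, 159 and 184 CPM in tumor and 319, 321, 289 and 373 in spleen. The tissues did not overlap. For Sirpa, edgeR gave a log2 difference of -1.05 ± 0.24 (SE, n = 4) at a Benjamini-Hochberg adjusted p of 0.00826, with tumor below spleen in 4 of 4 conditions. Without the Aire+/+ anti-PD1 libraries the log2 difference of Sirpa was -0.95 with a Benjamini-Hochberg adjusted p of 0.0845 in edgeR, and 3 of 3 conditions kept spleen above tumor. Csf2rb, among the 3 higher, had an adjusted p of 0.0568 without the Aire-/- isotype libraries.

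Klf4, a factor needed by some type 2 cells, held 416, 417, 314 and 275 CPM in tumor and 64.9, 48.7, 72.2 and 0 in spleen. For Klf4, edgeR gave a log2 difference of 2.92 ± 0.36 (SE, n = 4) at a Benjamini-Hochberg adjusted p of 0.000116, with tumor above spleen in 4 of 4 conditions. Mgl2, a lectin close to Clec10a in sequence and so uncertain, held 471, 198, 43.8 and 161 CPM in tumor and 0, 9.73, 0 and 419.6 in spleen. Its UMIs were concentrated, with all 18 of the Aire-/- anti-PD1 spleen library and all 11 of the Aire-/- isotype tumor library in 1 member each. For Mgl2, edgeR gave a log2 difference of 2.02 ± 0.97 (SE, n = 4) at a Benjamini-Hochberg adjusted p of 0.185, with tumor above spleen in 3 of 4 conditions.

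The Notch2-dependent spleen subset, known by Esam and Clec4a4, was thin. Its list had 6 genes, of which 1 was tested and 0 passed in edgeR or DESeq2, adjusted or not, and summed to 48.2, 44.6, 55.7 and 80.5 CPM in tumor and 159, 136, 169 and 209.8 in spleen, so each spleen library lay above each tumor library. The list also summed to 193.9 and 321.5 CPM in the tumor and spleen T cell gates. Clec4a4 had a UMI in 3 of 85 tumor members (3.53%) and 8 of 31 spleen members (25.8%), and 0 barcodes of the T cell gate.

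The list for the other spleen subset, which shares genes with monocytes, gave 1 higher and 1 lower of 6 tested, with a median of -0.85. Csf1r, the receptor for macrophage growth factor, held 162, 161, 275 and 265 CPM in tumor and 331, 467, 241 and 349.6 in spleen. For Csf1r, edgeR gave a log2 difference of -0.78 ± 0.29 (SE, n = 4) at a Benjamini-Hochberg adjusted p of 0.0854, with tumor below spleen in 3 of 4 conditions. The tissues overlapped. The list, led by Lyz2, summed to 1381, 2551, 4668 and 8016 CPM in tumor and 7214, 6802, 7875 and 1585 in spleen, and without members of 10 or more Lyz2 UMIs to 766, 749.9, 573 and 768 in tumor and 804, 485, 767 and 549.8 in spleen.

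Transcription factors of dendritic cells gave 5 higher and 3 lower of 20 tested, with a median of 0.35. Each of the 3 lower lost the call in some fits: Batf3 at adjusted p of 0.0508 and Relb at 0.302 without the Aire+/+ anti-PD1 libraries, Bcl11a at 0.122 and Relb at 0.169 without the Aire+/+ isotype libraries, Bcl11a at 0.0987 and Relb at 0.0502 without the Aire-/- isotype libraries, and Bcl11a at 0.0555 without the Aire-/- anti-PD1 libraries. Ahr, among the higher, lost it at 0.14 without the Aire+/+ isotype libraries, 0.0773 without the Aire+/+ anti-PD1 libraries and 0.0875 without the Aire-/- isotype libraries. Nr4a1, an early response factor, held 636, 767, 836 and 986 CPM in tumor and 236, 107, 265 and 46.6 in spleen. For Nr4a1, edgeR gave a log2 difference of 2.26 ± 0.33 (SE, n = 4) at a Benjamini-Hochberg adjusted p of 0.000399, with tumor above spleen in 4 of 4 conditions. Each tumor library lay above each spleen library. Irf8, which type 1 cells need, held 63.4, 114, 251 and 309 CPM in tumor and 195, 77.9, 120.4 and 93.2 in spleen. For Irf8, edgeR gave a log2 difference of 0.17 ± 0.44 (SE, n = 4) at a Benjamini-Hochberg adjusted p of 0.849, with tumor above spleen in 3 of 4 conditions.

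Several genes with the lowest ratios belonged to no list. Txnip, which limits glucose uptake, held 71.0, 107, 87.5 and 77.1 CPM in tumor and 342, 302, 289 and 583 in spleen. For Txnip, edgeR gave a log2 difference of -2.08 ± 0.30 (SE, n = 4) at a Benjamini-Hochberg adjusted p of 0.000387, with tumor below spleen in 4 of 4 conditions. Rsrp1, an arginine and serine rich protein of the nucleus, held 91.2, 98.1, 99.5 and 77.1 CPM in tumor and 389.6, 448, 458 and 349.6 in spleen. Both genes were lower in each tumor library than in any spleen library. For Rsrp1, edgeR gave a log2 difference of -2.14 ± 0.24 (SE, n = 4) at a Benjamini-Hochberg adjusted p of 6.12e-05, with tumor below spleen in 4 of 4 conditions.

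Prkcb, a protein kinase C, held 32.9, 44.6, 19.9 and 47.0 CPM in tumor and 88.6, 224, 144 and 139.9 in spleen. For Prkcb, edgeR gave a log2 difference of -1.98 ± 0.34 (SE, n = 4) at a Benjamini-Hochberg adjusted p of 0.00133, with tumor below spleen in 4 of 4 conditions. Igsf6, an immunoglobulin family protein of myeloid cells, held 30.4, 40.1, 43.8 and 77.1 CPM in tumor and 177, 185, 169 and 209.8 in spleen. The highest tumor value was below the lowest spleen value for both. For Igsf6, edgeR gave a log2 difference of -2.06 ± 0.29 (SE, n = 4) at a Benjamini-Hochberg adjusted p of 0.000303, with tumor below spleen in 4 of 4 conditions. Sirpb1a had the lowest log2 difference of the genes named, and it is uncertain because near-identical copies can share or lose UMIs. For Sirpb1a, edgeR gave a log2 difference of -2.96 ± 0.32 (SE, n = 4) at a Benjamini-Hochberg adjusted p of 5.66e-05, with tumor below spleen in 4 of 4 conditions.

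Some of the genes highest in tumor against spleen had a role outside these lists. Gpr171, a receptor for a neuropeptide, held 370.0, 415, 466 and 463 CPM in tumor and 0 in each spleen library. Gpr171 was at least 50.1-fold higher in tumor against a floor of 3 UMIs over the spleen members, with tumor above spleen in 4 of 4 conditions (edgeR, Benjamini-Hochberg adjusted p = 3.28e-05). Cdkn1a, the inhibitor of cyclin-dependent kinases p21, held 727, 859, 1106 and 1150.4 CPM in tumor and 11.8, 0, 24.1 and 0 in spleen. The spleen UMIs lay in both isotype libraries. Cdkn1a had a pooled tumor to spleen ratio of 110.4 (counting interval 37.7 to 536), with tumor above spleen in 4 of 4 conditions (edgeR, Benjamini-Hochberg adjusted p = 2.32e-06).

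Timp1, an inhibitor of matrix metalloproteinases, held 106, 49.1, 163 and 141 CPM in tumor and 0 in each spleen library. Timp1 was at least 12.5-fold higher in tumor against a floor of 3 UMIs over the spleen members, with tumor above spleen in 4 of 4 conditions (edgeR, Benjamini-Hochberg adjusted p = 0.000727). Tnip3, an inhibitor of NF-kappaB signalling, held 172, 55.8, 211 and 278 CPM in tumor and 0 in each spleen library. Tnip3 was at least 19.5-fold higher in tumor against a floor of 3 UMIs over the spleen members, with tumor above spleen in 4 of 4 conditions (edgeR, Benjamini-Hochberg adjusted p = 0.000224). The Aire+/+ anti-PD1 library was lowest in tumor for both.

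The tissue contrast was also seen without the 41 members that had 10 or more Lyz2 UMIs. With the other 75 alone, edgeR tested 1614 genes and called 236 higher and 189 lower, and 284 of the 469 calls were shared. Of these 75 members 57 lay in tumor and only 18 in spleen, over 4 libraries each. A fit of tissue alone without the 2 Aire-/- spleen libraries, which had 4 members each, gave 295 higher and 138 lower of 3998, with 333 calls shared. Both fits were chosen after seeing the data.

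The members were set against type 1 conventional dendritic cells, chosen by a gate of 62 barcodes, by an interaction of tissue and gate with the library as a block. Only 5 libraries, of which 1 was a spleen library, had at least 5 barcodes in both gates. Of 4062 genes tested with edgeR, 0 had a larger tumor to spleen difference in the members and 1 had a smaller one (0.0246%), beside 257 at an unadjusted p under 0.05.

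That gene was Ifitm3, an interferon-induced protein that blocks virus entry. In members it held 4808, 5959, 7087 and 7026 CPM in tumor and 4575, 3494, 4359 and 2541 in spleen. Pooled, members held 6065 and 3994, and the type 1 gate 3612 and 153. The fitted interaction was -4.68 on the log2 scale. Its spleen side was 1 library with both gates, so no spleen replicate stood behind this call, and without the Aire+/+ isotype libraries it could not be fitted.

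For genotype, the members of Aire-/- libraries were set against those of Aire+/+ libraries under each antibody, as ratios of CPM past a log2 of 1 in genes with 20 or more UMIs over the pair. Under isotype in tumor, 197 of 3690 genes were past it upward (5.34%) and 276 downward (7.48%). Under anti-PD1 they were 242 of 4070 (5.95%) and 263 (6.46%). Both ratios went the same way in 51 genes upward and 42 downward of 3451 with enough UMIs in both pairs. Each ratio compares 2 libraries, with no replicate check.

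Interferon-gamma genes were higher in the Aire-/- tumor members under both antibodies. Of the list, 9 of 14 genes were past the fold upward and 0 downward under isotype, with a median of 1.55, and 13 of 18 and 0 under anti-PD1, with a median of 1.35. Cxcl10 counted 110, 353, 765 and 1053 UMIs in the 4 tumor libraries. Cxcl10 had isotype and anti-PD1 log2 ratios of 3.45 (3.16 to 3.75) and 2.17 (1.99 to 2.34). Its UMIs were concentrated, as the highest member gave 92 of 110, 128 of 353, 394 of 765 and 270 of 1053.

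Irf1, the factor that carries much of the interferon-gamma response, counted 28, 162, 134 and 272. Irf1 had isotype and anti-PD1 log2 ratios of 2.91 (2.31 to 3.55) and 1.34 (1.05 to 1.63). Gbp2, a GTPase that attacks vacuoles of pathogens, counted 47, 44, 123 and 167. Gbp2 had isotype and anti-PD1 log2 ratios of 2.04 (1.54 to 2.56) and 2.51 (2.03 to 3.03). Both genes were higher in each Aire-/- library than in the Aire+/+ library of the same antibody.

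Socs1 counted 11, 76, 78 and 139. Socs1 had isotype and anti-PD1 log2 ratios of 3.48 (2.56 to 4.54) and 1.46 (1.05 to 1.88). Cxcl9, another Cxcr3 ligand, counted 66, 24, 136 and 80. Cxcl9 had isotype and anti-PD1 log2 ratios of 1.69 (1.26 to 2.14) and 2.33 (1.65 to 3.05). The higher count lay with Aire-/- in each pair, and anti-PD1 libraries were above isotype for Socs1 and below it for Cxcl9. The UMIs of Cxcl9 lay in 3, 3, 4 and 6 members, of which the highest gave 55 of 66, 18 of 24, 66 of 136 and 38 of 80.

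Il1rn, the antagonist of the interleukin 1 receptor, had the largest isotype ratio of the genes named, with UMIs of 6, 14, 117 and 71. Il1rn had isotype and anti-PD1 log2 ratios of 4.94 (3.77 to 6.41) and 2.93 (2.09 to 3.87). Osm, a cytokine of the interleukin 6 family, counted 35, 91, 102 and 179. Osm had isotype and anti-PD1 log2 ratios of 2.19 (1.63 to 2.79) and 1.56 (1.19 to 1.95). Mpeg1, a pore-forming protein of phagocytes, counted 36, 62, 71 and 166. Mpeg1 had isotype and anti-PD1 log2 ratios of 1.63 (1.03 to 2.25) and 2.01 (1.58 to 2.45). All of them were higher in the Aire-/- library of each pair.

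Lyz2 was higher in the Aire-/- tumor libraries, and the monocyte list was less even. The monocyte list had 3 of 7 genes past the fold upward and 1 downward under isotype, with a median of 0.90, and 5 of 6 and 0 under anti-PD1, with a median of 2.09. Lyz2 counted 208, 763, 916 and 1991. Lyz2 had isotype and anti-PD1 log2 ratios of 2.79 (2.57 to 3.01) and 1.97 (1.85 to 2.09). In the Aire+/+ libraries 1 member gave 154 of the 208 and 1 member 504 of the 763. The order of the 4 libraries was that of the share of members with 10 or more Lyz2 UMIs. That share is set by the same Lyz2 UMIs, so the matching order is no separate evidence. F13a1 counted 3, 37, 36 and 121. F13a1 had isotype and anti-PD1 log2 ratios of 4.24 (2.57 to 6.58) and 2.30 (1.76 to 2.87). In the Aire+/+ anti-PD1 library 1 member gave 23 of its 37 UMIs.

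With only members under 10 Lyz2 UMIs, 31 of the 51 genes still had 20 or more UMIs in both pairs and 12 were past the fold upward in both. Il1rn then had log2 ratios of 4.46 and 2.54, Cxcl10 1.97 and 2.65, Gbp2 1.42 and 2.68, Irf1 2.35 and 1.22, Cxcl9 1.22 and 2.38, Osm 1.42 and 1.57, and Mpeg1 1.05 and 2.51. Socs1 had 3.03 and 0.98, so it lost the fold under anti-PD1, and F13a1 no longer had 20 UMIs in both pairs. Lyz2 itself had -0.28 and 1.50, which the choice of members fixes in part. The interferon-gamma list of these members summed to 1833, 2576, 4482 and 8366 CPM in tumor, so both Aire-/- libraries lay above both Aire+/+ libraries. These values rest on few members. The Aire-/- isotype tumor library kept 7 at 0 and 2 at 1 to 9 Lyz2 UMIs, and the Aire-/- anti-PD1 library 4 and 5. How far single members carried these sums was not tested, nor was the part of the members left out.

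Genes lower in Aire-/- tumor members included Rrad, a small GTPase, with UMIs of 66, 112, 6 and 17. Rrad had isotype and anti-PD1 log2 ratios of -2.81 (-4.31 to -1.61) and -2.13 (-2.96 to -1.39). Ltb counted 46, 43, 9 and 4. Ltb had isotype and anti-PD1 log2 ratios of -1.70 (-2.92 to -0.65) and -2.84 (-4.78 to -1.38). Ddit4, a stress-induced inhibitor of mTOR, counted 62, 110, 11 and 18. Ddit4 had isotype and anti-PD1 log2 ratios of -1.84 (-2.92 to -0.91) and -2.02 (-2.83 to -1.30). In each pair the Aire+/+ library was several times higher, although 1 member gave 69 of the 112 Rrad UMIs of the Aire+/+ anti-PD1 library.

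Gpr183, the oxysterol receptor that positions spleen type 2 cells, counted 95, 155, 20 and 42. Gpr183 had isotype and anti-PD1 log2 ratios of -1.60 (-2.37 to -0.89) and -1.30 (-1.82 to -0.80). H2-Oa, which restrains peptide loading on MHC class II, counted 107, 102, 29 and 26. H2-Oa had isotype and anti-PD1 log2 ratios of -1.23 (-1.88 to -0.63) and -1.38 (-2.06 to -0.75). Tubb5, a tubulin with close relatives, counted 333, 196, 74 and 46, with log2 ratios of -1.52 and -1.50. The Aire+/+ library was higher in each pair, and the type 2 identity list had 6 of 14 genes past the fold downward and 0 upward under isotype and 4 of 13 downward and 1 upward under anti-PD1, with medians of -0.67 and -0.60.

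Among members under 10 Lyz2 UMIs, 32 of the 42 genes still had 20 or more UMIs in both pairs and 10 were past the fold downward in both. Rrad then had log2 ratios of -2.30 and -1.77, Ltb -1.80 and -3.11, Ddit4 -1.28 and -3.72, and Il7r -1.62 and -3.43. Gpr183 had -1.25 and -0.82, Tubb5 -0.70 and -1.20, and H2-Oa -0.96 and -1.14, so each of these lost the fold in 1 pair.

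**Figure D4:**
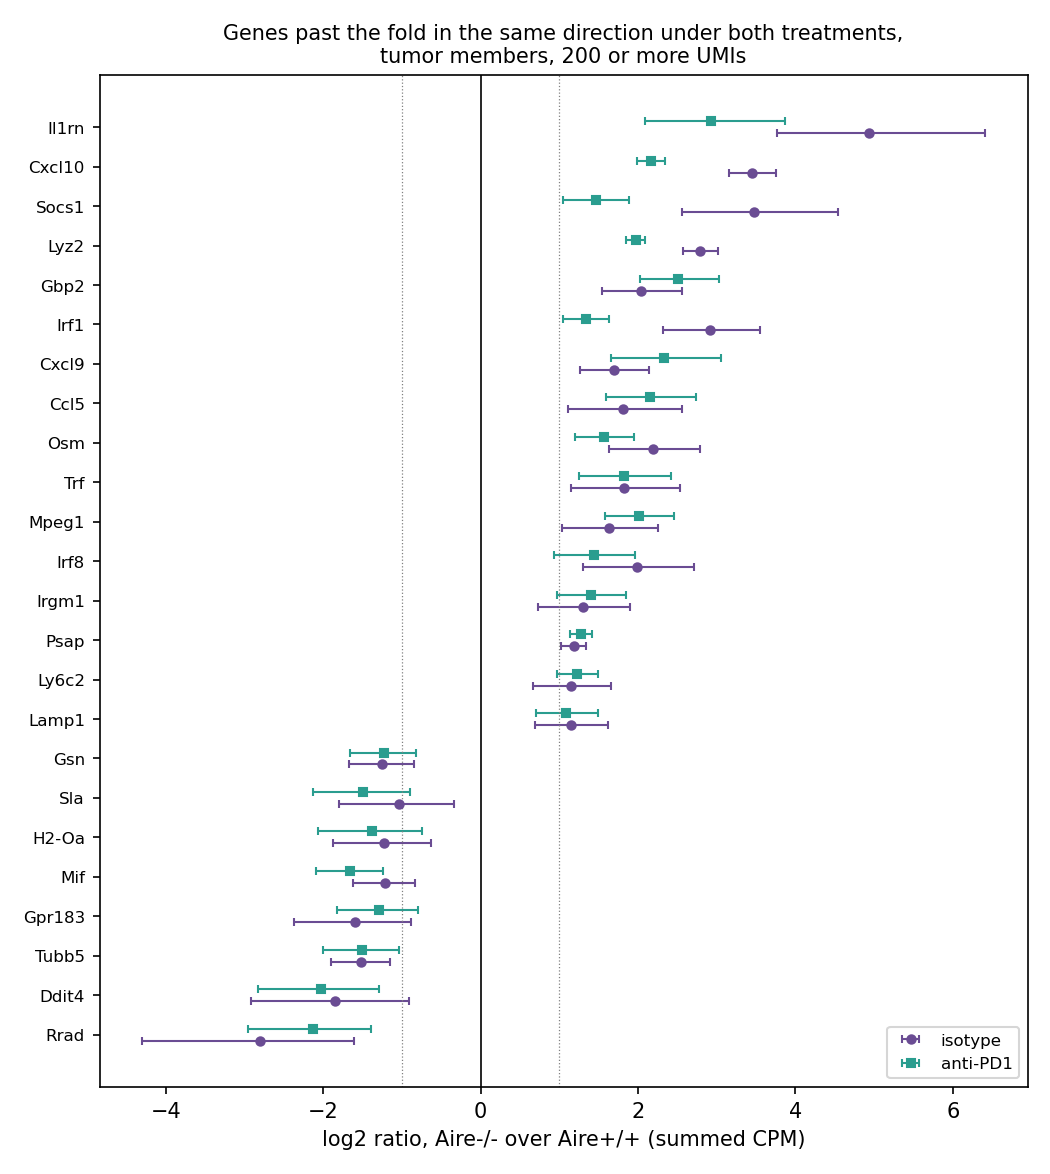
Log2 ratio of Aire-/- over Aire+/+ tumor members under isotype (circles) and anti-PD1 (squares) with 95% counting intervals, for the 24 genes past a log2 of 1 in the same direction in both pairs that had 200 or more UMIs. Of them 16 were higher and 8 lower in the Aire-/- libraries, and each point compares 2 libraries.

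Other genotype ratios were not the same in both pairs. Ccl17, which draws regulatory and type 2 helper T cells, counted 183, 4, 6 and 0. Its UMIs lay mostly in 1 member, which gave 156 of the 183 in the Aire+/+ isotype library. Mgl2 counted 186, 89, 11 and 48. Mgl2 had isotype and anti-PD1 log2 ratios of -3.43 (-4.46 to -2.56) and -0.30 (-0.84 to 0.22). Ccl3 counted 185, 2, 19 and 20. Ccl3 had isotype and anti-PD1 log2 ratios of -2.63 (-3.40 to -1.95) and 3.91 (1.87 to 7.05). Its ratios thus went opposite ways, on UMIs of 4, 2, 3 and 3 members, of which the highest gave 67, 1, 17 and 12. Cell cycle genes had 8 of 9 past the fold downward under isotype and 1 of 3 under anti-PD1, but 44 of 62 Top2a UMIs and 43 of 72 Stmn1 UMIs of the Aire+/+ isotype library lay in 1 member.

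For treatment, anti-PD1 was set against isotype within each genotype, which shares all 4 libraries with the genotype ratios. In Aire+/+ tumor members 199 of 4494 genes were past the fold upward (4.43%) and 197 downward (4.38%), and in Aire-/- tumor members 150 of 3241 upward (4.63%) and 96 downward (2.96%). Both ratios went the same way in 18 genes upward and 5 downward of 3145.

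Iigp1, an interferon-induced GTPase, counted 2, 22, 4 and 48 UMIs in tumor. Iigp1 had log2 ratios of 3.28 (1.25 to 6.41) in Aire+/+ and 3.34 (1.89 to 5.27) in Aire-/- mice. Apod, a lipid carrier, counted 8, 70, 3 and 25. Apod had log2 ratios of 2.94 (1.89 to 4.21) in Aire+/+ and 2.81 (1.10 to 5.18) in Aire-/- mice. Ly6c2, which has a close copy that may share its UMIs, counted 60, 198, 85 and 309. Ly6c2 had log2 ratios of 1.54 (1.11 to 1.98) in Aire+/+ and 1.62 (1.26 to 1.98) in Aire-/- mice. The anti-PD1 library was higher in each pair for these genes, but in the Aire-/- anti-PD1 library 1 member gave 23 of 25 Apod UMIs and 1 member 25 of 48 Iigp1 UMIs. Among members under 10 Lyz2 UMIs Iigp1 had log2 ratios of 3.22 and 3.92 and Apod 3.31 and 3.005, whereas Ly6c2 had 0.83 and 1.92.

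Clec4e, the receptor Mincle for fungal and mycobacterial lipids, counted 6, 25, 7 and 49. Clec4e had log2 ratios of 1.87 (0.55 to 3.45) in Aire+/+ and 2.56 (1.41 to 3.95) in Aire-/- mice. In the Aire+/+ anti-PD1 library 1 member gave 20 of the 25 Clec4e UMIs. Mrc1, the mannose receptor, was among the 5 lower genes and counted 49, 8, 22 and 12. Mrc1 had log2 ratios of -2.80 (-4.09 to -1.71) in Aire+/+ and -1.12 (-2.27 to -0.04) in Aire-/- mice. Cxcl9 was lower with anti-PD1 in both pairs as well. Cxcl9 had log2 ratios of -1.64 (-2.38 to -0.95) in Aire+/+ and -1.01 (-1.43 to -0.60) in Aire-/- mice. Among members under 10 Lyz2 UMIs these genes did not keep the fold in both pairs: Clec4e had 3.09 and -0.05 and Mrc1 -2.76 and 0.95, each with under 20 UMIs in at least 1 pair, and Cxcl9 had -1.70 and -0.54.

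Some treatment ratios differed between the genotypes, and this difference was not tested. Irf1 had log2 ratios of 2.35 (1.76 to 2.98) in Aire+/+ and 0.77 (0.47 to 1.08) in Aire-/- mice. Chemokines had 2 of 13 past the fold upward and 7 downward in Aire+/+, with a median of -1.64, and 0 and 1 of 11 in Aire-/-, with a median of 0.21. Over all genes the shares were 4.43% upward and 4.38% downward in Aire+/+ and 4.63% and 2.96% in Aire-/-. In the Aire+/+ isotype library the highest member gave 156 of 183 UMIs of Ccl17, 284 of 409 of Ccl6 and 41 of 78 of Ccl7. Cxcl2, at -2.27 in Aire+/+, turned to 3.03 with at least 2 UMIs asked of each positive pair of genes. Klf2, a factor that controls cell trafficking, counted 182, 125, 43 and 303, so it was highest in the Aire-/- anti-PD1 library. Klf2 had log2 ratios of -0.73 (-1.07 to -0.39) in Aire+/+ and 2.57 (2.11 to 3.07) in Aire-/- mice.

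In spleen the Aire-/- libraries had 4 members each, and ratios rested on few cells. Past the fold in either direction were 223 of 1497 genes for genotype under isotype (14.9%), 173 of 945 under anti-PD1 (18.3%), 205 of 1942 for treatment in Aire+/+ (10.6%) and 110 of 534 in Aire-/- (20.6%). Both genotype ratios went the same way in 2 genes upward and 9 downward of 890, and both treatment ratios in 1 and 4 of 517. For genotype in spleen, the interferon-gamma list had 0 of 3 genes past the fold under isotype, with a median of 0.61. Under anti-PD1 it had 0 upward and 3 downward of 6, with a median of -1.09. Over all genes of this pair 25 were past the fold upward and 148 downward of 945, with a median of -0.18. Its Aire+/+ library was the one with the high interferon-gamma sum of 2793 CPM, where the Cxcl9 UMIs lay in 1 member. Whether tumor and spleen differed in this was not tested.

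Lyz2 in spleen counted 987, 579, 276 and 28 UMIs. The Aire-/- anti-PD1 library had the fewest, with 13 UMIs at most in a member, but in the Aire-/- isotype library 1 member gave 272 of the 276. For Lyz2 the log2 ratio of Aire-/- over Aire+/+ under anti-PD1 was -3.11 (-3.71 to -2.56), and Vim, a filament protein of myeloid cells, had -3.26 (-4.15 to -2.49). Among members under 10 Lyz2 UMIs Vim turned to 1.13. Cd74 in Aire-/- spleen was higher with anti-PD1 than with isotype at a log2 ratio of 1.26 (1.15 to 1.37), from 2297 and 931 UMIs, and at 0.86 among members under 10 Lyz2 UMIs.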

How the data were processed

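The authors deposited UMI counts, as whole numbers per gene and barcode, for each CD45+ library, made by Cell Ranger on barcodes called as cells. The deposited tables had 25127 genes or features, which were summed to 24495 symbols by the first part of each name. The rule was applied to raw counts with no filter on cells, no member failed the study's limits of 200 genes and 20% mitochondrial UMIs, and no doublet caller was run. No member lay in another gate, and 1 held over 2 times the median UMIs of its library's members. Pairs of the 8 libraries shared 3 to 16 barcodes, and 0 members shared a barcode with a member of another library. The members and lists were chosen with earlier results of these data known.

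Member UMIs were summed per library and tested for tissue with edgeR 4.0.16 (quasi-likelihood, TMM, terms for condition and tissue, 3 residual degrees of freedom) in R 4.3.3, tested on simulated data, and with DESeq2 1.42.0 as an alternative. The SE beside an edgeR log2 difference was derived from the test, as the size of the difference divided by the square root of its F statistic. It is not a spread of library values, and n = 4 counts the libraries per tissue. Shares were compared by an exact permutation test, and ratios of 2 libraries have conditional exact 95% intervals (Python 3.11.15, scipy 1.17.1). A gene with 0 UMIs in a group was set to a floor of 3 counts over the group. Named genes were taken from the 12 largest differences per direction, the 5 largest ratios with 100 or more UMIs, genes past the fold in both pairs, and 29 lists, and not all of them were named. Alternatives covered the rule, depth, filters, scaling, tool, design and each library left out. Some results are not reported here.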

Additional observations from a re-analysis of the deposited data

Results flagged for a closer look

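In each set of 4 libraries of a tissue, the highest or lowest value was set against its nearest neighbour and the whole range. Chance marks about 1 in 20 such groups, and 13 of 116 groups were marked here.

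Cxcl2 stood at 773 CPM (UMIs per 1000000 of the summed members) in the Aire+/+ isotype tumor library, far above the other tumor libraries at 161, 123 and 138. Grasp was low in the Aire-/- anti-PD1 tumor library at 87.2, with the others at 266, 243 and 259. ENSMUSG00000076617, of uncertain counting, was low at 39.8 in the Aire-/- isotype tumor library. Gm12657, also uncertain, was high at 90.6 in the Aire-/- anti-PD1 tumor library and low at 72.2 in the Aire-/- isotype spleen library.

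The neutrophil list summed to 98.1 in the Aire+/+ anti-PD1 tumor library, where 26 of 27 S100a8 UMIs lay in 1 member. It summed to 11.8 in the Aire+/+ isotype spleen library and to 0 in the other spleen libraries. The MHC class I list was low in the Aire+/+ isotype tumor library at 8272, and the receptor and positioning list was high in the Aire-/- anti-PD1 tumor library at 1861.

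In spleen, the Aire+/+ isotype library had the highest member median at 13314 UMIs, and it alone held Il1r2, at 5.90 CPM. The list of Esam-low type 2 genes was low in the Aire-/- anti-PD1 library at 1585. The interferon-gamma list was high in the Aire+/+ anti-PD1 library at 2793.

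The tumor to spleen difference of Ifitm3 had a fitted interaction of -4.68 on the log2 scale between the members and the type 1 gate, on 1 spleen library with both gates, so no spleen replicate stood behind it. Outside the CD45+ libraries, 4 of 19840 barcodes of the CD8+ libraries passed the rule, or 0.0202% (0.00549 to 0.0516). The cause of these values was not tested.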

How the results depend on the processing

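The share of members changed with processing. The tumor minus spleen difference of 0.586 points was 0.243 with at least 2 UMIs asked of each positive pair of genes (exact permutation p = 0.0857) and 0.0658 with barcodes thinned to 3000 UMIs (exact p = 0.2). Leaving out each library in turn gave 0.521 to 0.670 points, at exact p = 0.0571 without the Aire+/+ anti-PD1 tumor library (0.525) or the Aire-/- anti-PD1 tumor library (0.581). As a share of barcodes in 4 dendritic cell gates it reversed to -0.556 points (exact p = 1), and without the mature gate it was 14.5 points (exact p = 0.0857). Paired by condition it was 0.586 at exact p = 0.125. Both of the latter were added after seeing the data.

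In the tissue fit, genes higher in tumor numbered 290, or 155 of 1793 with the stricter positive genes, 13 of 167 after thinning and 593 of 11737 without a filter on low counts, where the median of all genes was 0.26. Genes lower numbered 179, or 61 with the stricter positive genes and 2 after thinning. Leaving out each condition gave 188 to 296 higher and 74 to 209 lower, with 188 and 74 without the Aire+/+ anti-PD1 libraries and 115 lower without the Aire-/- isotype libraries. DESeq2 called 295 higher and 163 lower, library totals without TMM 263 and 202, and tissue without the condition term 342 and 234. Of the 102 genes followed over these settings, 1272 values kept their direction and call and 116 lost the call. All 102 were called in the main fit, so a call could be kept or lost but not gained. The quality filter left out no member, so its 102 values could not change. Genes no longer tested in a setting gave no value, and after thinning 7 values kept the call and 1 lost it.

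The interaction with the type 1 gate called 1 gene, or 38 without a filter on low counts, and 1 with each condition left out except the Aire+/+ isotype libraries, without which it could not be fitted. It rested on 1 spleen library in each fit.

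After thinning, far fewer genes had enough UMIs for a ratio. Those past the fold were 38 of 191 and 27 of 222 in tumor for genotype under isotype and anti-PD1 and 21 of 173 and 39 of 244 for treatment in Aire+/+ and Aire-/-, and in spleen 32 of 127, 28 of 124, 25 of 83 and 28 of 152 in the same order. Among members under 10 Lyz2 UMIs, an alternative chosen after seeing the data, spleen counts were 119 of 755 for genotype under isotype, 55 of 459 under anti-PD1 and 57 of 332 for treatment in Aire-/-. With the stricter positive genes the anti-PD1 genotype count in spleen was 83 of 494.

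Of 491 values of 80 single ratios over these settings, 85 left the counting interval of the ratio, with 29 of 68 among members under 10 Lyz2 UMIs and 20 of 27 after thinning, and 5 more reversed from past the fold. The 491 include 80 values of the quality filter, which left out no member and so could not move them. Among members under 10 Lyz2 UMIs, Lyz2 went to -0.28 for genotype under isotype in tumor, Vim to 1.13 for genotype under anti-PD1 in spleen, and Lars2, whose counting is uncertain, to -0.13 for treatment in Aire-/- spleen. Beside these 80, genes past the fold upward in both genotype pairs in tumor that turned in this way with 20 or more UMIs were Trf at -0.22 and -0.60 under isotype and anti-PD1, Adam8 at -0.28 and Cldnd1 at -0.03 under isotype, and Gsr at -1.20 under anti-PD1. Lars2 went to -0.91 after thinning. Cxcl2 went to 3.03 for treatment in Aire+/+ tumor with the stricter positive genes.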

Other observations

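Ifitm1, an interferon-induced membrane protein named after its values were seen, stood at 4078, 4070.2, 4521 and 2532 CPM in tumor members and at 11.8, 19.5, 313 and 0 in spleen. It was highest in tumor members with under 10 Lyz2 UMIs, at 5313 against 323 in the others, and Il1r2 likewise at 1224 against 96.3. Klrd1, a natural killer cell receptor chain, held 781 UMIs in the members although Ncr1, Klrb1c and Prf1 were at 0. In tumor the natural killer list, almost wholly Klrd1 in the members, summed to 30.9 CPM in the monocyte gate and 11.95 in the macrophage gate, both under the 181 CPM of the lowest tumor library of members, and to 546 in the type 1 gate and 404 in the mature gate.

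These results have limits. The members were few, with 4 in each Aire-/- spleen library, and tumor values rest on 85 barcodes. Each condition had 1 library per tissue, from pooled mice, so genotype and treatment ratios have counting intervals but no replicate. The tissues differed in depth, and the paper does not give the dissociation of these libraries, so neither can be told apart from tissue. The rule used low counts, so a deeper barcode passed it more readily. Lyz2 separated the members into unequal groups whose proportions differed between libraries. Free RNA adds UMIs to every barcode. Genes with near-identical copies are uncertain.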
